A study of Mus musculus with 3 samples.

Results

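Ly6c2 Ccr2 cells that met a rule for classical monocytes outside division were 2542 of the 17879 mouse bone marrow cells kept across the 3 libraries of this study of Fabp4, the gene of the adipocyte fatty acid-binding protein. They were chosen by measured values. A cell counted as a member when it held at least 1 unique molecular identifier (UMI, a count of 1 captured RNA molecule) of Ly6c2 and of Ccr2 and at least 3 of 7 further monocyte genes were detected, namely Csf1r, F13a1, Ms4a6c, Ms4a4c, Fn1, Klf4 and Cx3cr1. Fewer than 5 UMIs in all of the division genes Top2a, Mki67, Ube2c, Birc5, Cdk1 and Nusap1 were allowed. Cells were left out when the neutrophil granule genes Ltf, Ngp, Camp and Lcn2 made up 2% or more of their UMIs, when the MHC class II genes H2-Aa, H2-Ab1, H2-Eb1 and Cd74 reached 20 per 10000 UMIs, or when both Vcan and Pla2g7 were detected. The levels of these 25 genes are therefore given as a description. They are left out of every count of measured genes and every list median below, while some sums over lists include them.

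Marrow came from wild-type mice, from mice heterozygous for a Fabp4 knockout and from mice homozygous for it, with cells of 2 mice mixed in each of the 3 libraries and no record of which cell came from which mouse. The series concerns leukaemia stem cells, and its labels give neither the age and strain of the mice, nor how the knockout was made, nor whether the marrow carried leukaemia. In the sample titles the homozygous library carries the letter H and the heterozygous one the letter K, and groups here follow the genotype labels. Libraries were made with 10x Genomics Chromium 3' chemistry, which counts the 3' ends of RNA in single cells.

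Classical monocytes are made in the bone marrow from granulocyte-monocyte and monocyte progenitors. They carry Ly6C on the surface and leave for the blood along the chemokine receptor CCR2, and in tissue they can become macrophages or dendritic-like cells. They respond to type 1 interferon through the IFNAR receptor, whose signal switches on antiviral genes whose promoters often hold an interferon-stimulated response element. In the steady state a part of them loses Ly6C, gains CX3CR1 and becomes the patrolling, nonclassical kind.

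The libraries held 9432 wild-type, 10718 heterozygous and 8115 homozygous barcodes. A mitochondrial share of 10% or more removed 40.6%, 25.8% and 46.8% of them. Members held 11257164, 7187147 and 9472460 UMIs in all, with a median of 10702, 9303.5 and 10548 UMIs per cell. Between 21 and 26 barcodes were shared by each pair of libraries, and 1 was a member in both libraries of its pair. Xist without Y-linked RNA was found in 916 of 963 wild-type and 752 of 855 homozygous members. In the heterozygous library 232 of 724 members held Xist alone and 319 held Y-linked RNA alone. There was 1 library for each genotype, so no spread between mice can be estimated and no test was run. All differences compare these libraries and not the genotypes, and the 95% intervals cover counting error only. Unless stated otherwise, values stand in the order wild type, heterozygous, homozygous.

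In the wild-type library 963 of 5604 kept cells were members, a share of 17.2% (Clopper-Pearson interval 16.2 to 18.2). The heterozygous share was 9.10% (8.48 to 9.75), from 724 of 7957 cells. With 855 of 4318 cells, the homozygous library had a share of 19.8% (18.6 to 21.02). The heterozygous share was the lowest, and the wild-type and homozygous intervals did not overlap. Since detection depends on depth, the rule was also applied after each cell had been thinned to 2000 UMIs. The shares were then 4.71%, 3.32% and 9.84%, so that the homozygous share was the highest and the wild-type share lay nearer to the heterozygous one. With a mitochondrial limit of 25% in place of 10%, they were 12.7%, 7.50% and 12.2%, and the homozygous share no longer exceeded the wild-type one. Cells that met the rule except for 5 or more UMIs of the division genes numbered 250, 148 and 391. They were 20.6%, 17.0% and 31.4% of dividing and non-dividing cells together. Cells left out for having both Vcan and Pla2g7 numbered 61, 1 and 0.

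At the edge of the rule, cells with just 3 of the 7 further genes held 13.1, 14.1 and 20.6 Ly6c2 UMIs per 10000, and cells with 2 of them, just outside, held 11.3, 9.17 and 8.25. At the division limit, cells with 4 division UMIs held 14.98, 14.9 and 27.6 Ly6c2 UMIs per 10000, and cells with 5 of them held 14.1, 14.1 and 26.2.

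**Figure D1:**
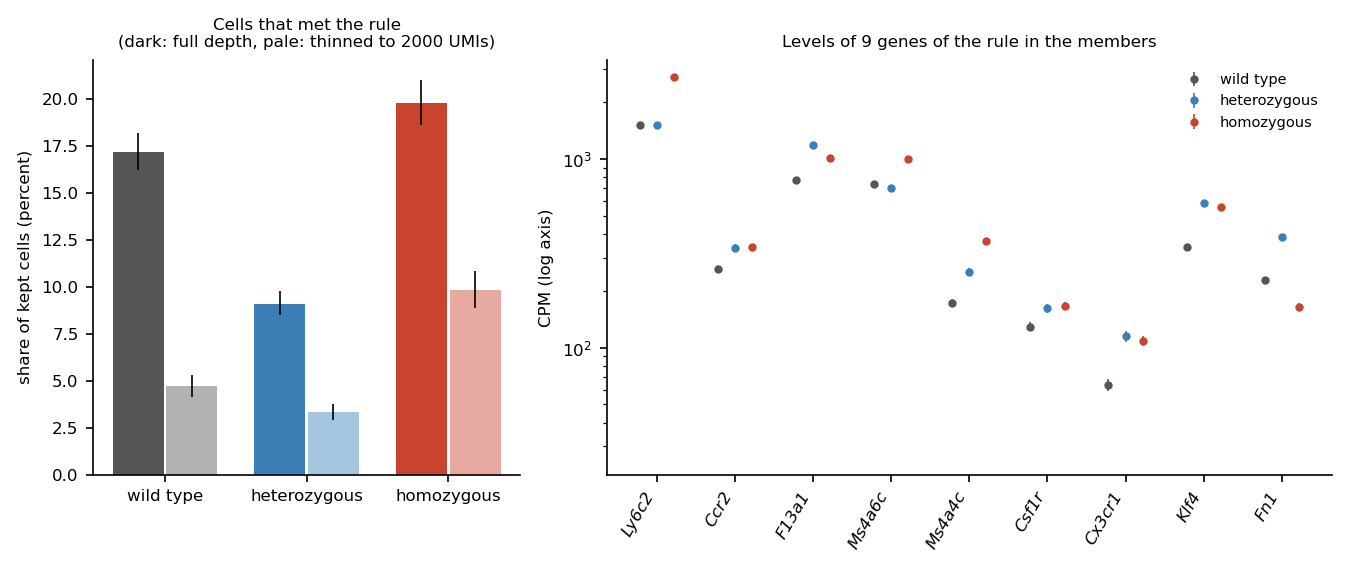
Left, share of kept cells that met the rule in each library, as percent with 95% exact binomial intervals, at full depth and after thinning to 2000 UMIs per cell. Right, level of 9 genes of the rule in the members of each library, as CPM (counts per 1000000 UMIs) on a log axis with 95% exact Poisson intervals. Ly6c2 stood at 2742 CPM in the homozygous library against 1525 in the wild-type one.

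Levels are given as CPM, that is, the summed UMIs of a gene over all members of 1 library, divided by all their UMIs and multiplied by 1000000. Ly6c2, the gene of the Ly6C surface protein, stood at 1525, 1520.5 and 2742 CPM, and was higher in the homozygous library alone. Ccr2, the receptor for CCL2, stood at 262, 339 and 341 CPM. F13a1, which encodes a subunit of clotting factor XIII, was at 775, 1196 and 1017 CPM, with the wild-type library lowest. Among the surface genes Ms4a6c and Ms4a4c, the first was at 739.5, 707 and 1006 CPM and the second at 173, 253 and 367 CPM. Csf1r, the receptor for macrophage colony-stimulating factor, was at 129.5, 162 and 166 CPM. Cx3cr1, the fractalkine receptor, was at 63.6, 115 and 109 CPM, and Klf4, a factor needed for Ly6C-high monocytes, at 344, 585 and 557 CPM. Both were lower in the wild-type library than in either knockout library. Fn1, which encodes fibronectin, ran the other way between the knockouts, at 228, 388 and 165 CPM.

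Genes outside the rule bore the monocyte label out in part. Lyz2, the lysozyme of myeloid cells, was at 5694, 8249 and 8787 CPM in the members and at 1345, 2635 and 1759.9 CPM in all other kept cells. Irf8, a factor that drives monocyte fate, was at 281, 270.3 and 346 CPM against 142, 80.04 and 210.3 in the other cells. S100a4, the scavenger receptor gene Msr1, the chemokine gene Ccl2, the lectin receptor genes Clec4a1 and Clec4a3, and Lpl, the gene of lipoprotein lipase, were among the 15 genes highest in the members over the other cells. The lowest of the 3 library ratios was 5.26 for S100a4, 4.91 for Msr1, 5.25 for Ccl2, 6.58 for Clec4a1, 6.40 for Clec4a3 and 6.69 for Lpl. The top of that list was Ifi204, a DNA sensor of the interferon-inducible p200 family, with a lowest ratio of 7.40. The list was ranked by these ratios, so their size follows from the choice. It also held Slfn5, Ifi211, Arhgef37, Ifi207 and Sdc3.

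The members also held genes of stem and progenitor cells, which mature monocytes are not known for. Meis1, a homeobox factor of stem cells, was at 735, 537 and 507 CPM and had a UMI in 95.8, 89.2 and 89.7% of members. Among the 21, 14 and 26 T and natural killer cells of the libraries, which should lack it, the share was 28.6, 28.6 and 46.2%, at median depths of 5950, 7376 and 8748 UMIs. Mecom, another stem cell factor, was found in 72.9, 67.4 and 58.2% of members against 42.9, 28.6 and 23.1% of those cells, and the neutrophil elastase gene Elane in 88.8, 72.1 and 75.4% against 47.6, 57.1 and 53.8%. The monocyte markers were thus present, and genes that go against a mature monocyte were present beside them, so the cells are called Ly6c2 Ccr2 cells here.

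Markers of lymphoid and erythroid cells were low. The 11 B cell markers summed to 26.6, 17.5 and 27.98 CPM, the 12 erythroid markers to 4.44, 21.98 and 6.55 CPM and the 14 T and natural killer cell markers to 46.99, 26.7 and 56.9 CPM. Erythroid Slc4a1 was at 0 in all 3 libraries. The 17 macrophage markers, with Vcan and Pla2g7 of the rule among them, summed to 272, 297 and 245 CPM. That was above their sum in the other kept cells, at 162, 153 and 121 CPM. Of these markers Spic and Cd5l were at 0 in all 3 libraries. The 12 neutrophil granule markers, 4 of them limited by the rule, summed to 6405, 4801 and 2787 CPM and the 14 stem and progenitor markers to 3042, 2432 and 1422 CPM, with no marker of either list at 0 in any library. Both lists were lowest in the homozygous members.

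Fabp4 itself was scarce in these cells. There were 14 Fabp4 UMIs in 5 wild-type members (1.24 CPM, interval 0.680 to 2.09), 1 UMI in the heterozygous members and 0 in the homozygous ones, where a count of 0 allows up to 3 counts (0.317 CPM). The wild-type level, which rests on those 5 cells, was 3.93-fold the floor of 3 counts in the homozygous library. The other kept cells held 36, 37 and 5 Fabp4 UMIs, so the library labelled homozygous was the lowest in both sets of cells. Its relative Fabp5 was at 28.3, 29.1 and 33.6 CPM, a log2 ratio of 0.24 (0.02 to 0.47) for the homozygous against the wild-type library.

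For the comparison of each knockout with the wild type, a gene was measured when it held at least 50 UMIs in both libraries together, and it was past the fold when the log2 ratio of its CPM was at least 1 in size. Of 11004 genes measured between the homozygous and wild-type libraries, 254 were past the fold higher (2.31%) and 285 lower (2.59%). Between the heterozygous and wild-type libraries 10782 genes were measured, with 214 higher (1.98%) and 193 lower (1.79%). At any size, 6089 of the 11004 genes were higher in the homozygous library and 5056 of the 10782 in the heterozygous one. Counts of list genes below are to be read beside these shares. The median log2 ratio of all genes was 0.04 and -0.02. Both comparisons use the same wild-type library.

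Genes of the type 1 interferon response were the clearest group that set the homozygous members apart. The list was chosen with earlier results of these data known, so its counts are a description. All 64 measured genes of the list were higher in the homozygous library, and 40 of them (62.5%) were past the fold, against 2.31% of all genes. Each of the 64 had an interval above 0, as had 2609 of all 11004 genes measured. The median log2 ratio of the list was 1.26. Summed over its 68 genes found in the data outside the rule, measured or not, the list stood at 4210.1, 4529 and 9027 CPM. In the heterozygous library 32 of 61 measured genes were higher, none was past the fold, and the median was 0.01.

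The Ifit genes, whose proteins bind viral RNA, were among those that differed most. Ifit3 stood at 4.89, 6.12 and 71.3 CPM, a homozygous log2 ratio of 3.87 (3.47 to 4.29), and Ifit2 stood at 7.99, 10.7 and 72.7 CPM, a ratio of 3.19 (2.87 to 3.52). Ifit1 was at 2.31, 2.64 and 18.3 CPM, a ratio of 2.98 (2.38 to 3.64). In all 3 the homozygous library stood alone and the wild-type and heterozygous levels were close. Ifit3b, a near copy of Ifit3 with which it may share reads, was at 0.444, 1.81 and 12.8 CPM. Rtp4 was at 5.51, 5.70 and 38.1 CPM, with a ratio of 2.79 (2.40 to 3.20), and Ifi205 of the p200 family, from 7, 12 and 51 UMIs, had a ratio of 3.11 (1.97 to 4.50). Rsad2, the gene of the antiviral enzyme viperin, was at 4.80, 4.31 and 22.1 CPM, with a ratio of 2.20 (1.76 to 2.66).

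More abundant members of the list differed by smaller ratios. Ifi27l2a, an interferon-inducible gene of unsettled role, was at 432, 775 and 1389.7 CPM, with log2 ratios of 1.69 (1.64 to 1.73) in the homozygous and 0.84 (0.79 to 0.90) in the heterozygous library. It was 1 of 14 list genes whose heterozygous interval lay above 0, while 12 lay below. Isg15, a ubiquitin-like protein, was at 36.1, 25.7 and 133 CPM, with a homozygous ratio of 1.89 (1.72 to 2.05) and a heterozygous one of -0.49 (-0.75 to -0.23), so that the knockouts lay on opposite sides of the wild type. With the rule applied to thinned cells the heterozygous ratio of Isg15 was 0.016. Bst2, which encodes tetherin, was at 104, 91.1 and 269 CPM, a ratio of 1.37 (1.27 to 1.47). Ly6e, which encodes a surface protein, was at 999.99, 790.2 and 1174 CPM and had the smallest homozygous ratio of the 64 genes, 0.23 (0.19 to 0.27).

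Regulators and sensors of the pathway were higher too. Irf7, which amplifies interferon production, was at 71.5, 72.5 and 223 CPM, with a homozygous log2 ratio of 1.64 (1.52 to 1.76). Stat2 was at 45.7, 40.6 and 81.5 CPM, a ratio of 0.84 (0.67 to 0.9997), and Irf9 at 51.9, 57.9 and 75.4 CPM, a ratio of 0.54 (0.38 to 0.70). Usp18, the deconjugating enzyme that restrains the receptor, was at 18.2, 18.9 and 65.8 CPM, a ratio of 1.85 (1.62 to 2.09). The receptor genes differed less. Ifnar1 was at 69.2, 93.5 and 92.3 CPM, with 0.42 (0.27 to 0.56) and 0.43 (0.28 to 0.58) in the homozygous and heterozygous libraries, and Ifnar2 was at 428, 398 and 456 CPM. Of the p200 family, Ifi211 was at 25.9, 32.1 and 138 CPM, a ratio of 2.41 (2.23 to 2.60), and Ifi204 at 54.8, 63.3 and 194 CPM, a ratio of 1.82 (1.69 to 1.95).

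The promoters of some of these genes hold letters of the element that the background names. The motif searched was GAAA, any 2 bases and GAAA again, or, on the other strand, TTTC, any 2 bases and TTTC. It was searched for in the 250 bases before each transcription start of the RefSeq promoter table (build GRCm38.p6), and 2.98% of its 32851 promoters held it. Promoters were matched by symbol for 49 of the 64 measured list genes (76.6%). As fewer than 80% had one, no share over the list is given. The 5 below belong to genes described here and are shown because each held the motif, written in capitals, 5′ to 3′ along the gene. They start and end, on the named chromosome and strand, at chr19:34640769-34640888 (+) for Ifit1, chr19:34583337-34583456 (+) for Ifit3, chr4:156200819-156200938 (-) for Isg15, chr12:26456453-26456572 (-) for Rsad2 and chr1:173913047-173913166 (-) for Ifi211.
Ifit1: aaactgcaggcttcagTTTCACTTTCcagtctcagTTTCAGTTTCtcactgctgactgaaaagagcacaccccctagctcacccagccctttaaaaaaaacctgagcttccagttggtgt
Ifit3: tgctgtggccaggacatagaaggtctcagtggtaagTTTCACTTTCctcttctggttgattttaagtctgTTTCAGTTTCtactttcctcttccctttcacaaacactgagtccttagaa
Isg15: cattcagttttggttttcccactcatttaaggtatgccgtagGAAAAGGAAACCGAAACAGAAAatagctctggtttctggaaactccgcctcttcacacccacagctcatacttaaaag
Rsad2: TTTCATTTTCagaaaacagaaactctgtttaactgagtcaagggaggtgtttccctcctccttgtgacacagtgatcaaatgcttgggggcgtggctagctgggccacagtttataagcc
Ifi211: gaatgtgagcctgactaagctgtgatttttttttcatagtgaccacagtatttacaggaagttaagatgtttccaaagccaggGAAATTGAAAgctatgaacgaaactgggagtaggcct
The window ends at the base before the start for 4 of them and 73 bases before it for Ifit3. Ifit1 and Ifit3 each held 2 matches on the opposite strand, from 104 and 85 bases and from 156 and 122 bases before the start. In Isg15 there were 3 matches on the gene's own strand, from 78 to 66 bases before the start, which overlap one another. Rsad2 and Ifi211 held 1 each. No match was found in the Ifit2, Irf7 and Irf9 promoters of the table. A match describes these letters and shows no binding.

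**Figure D2:**
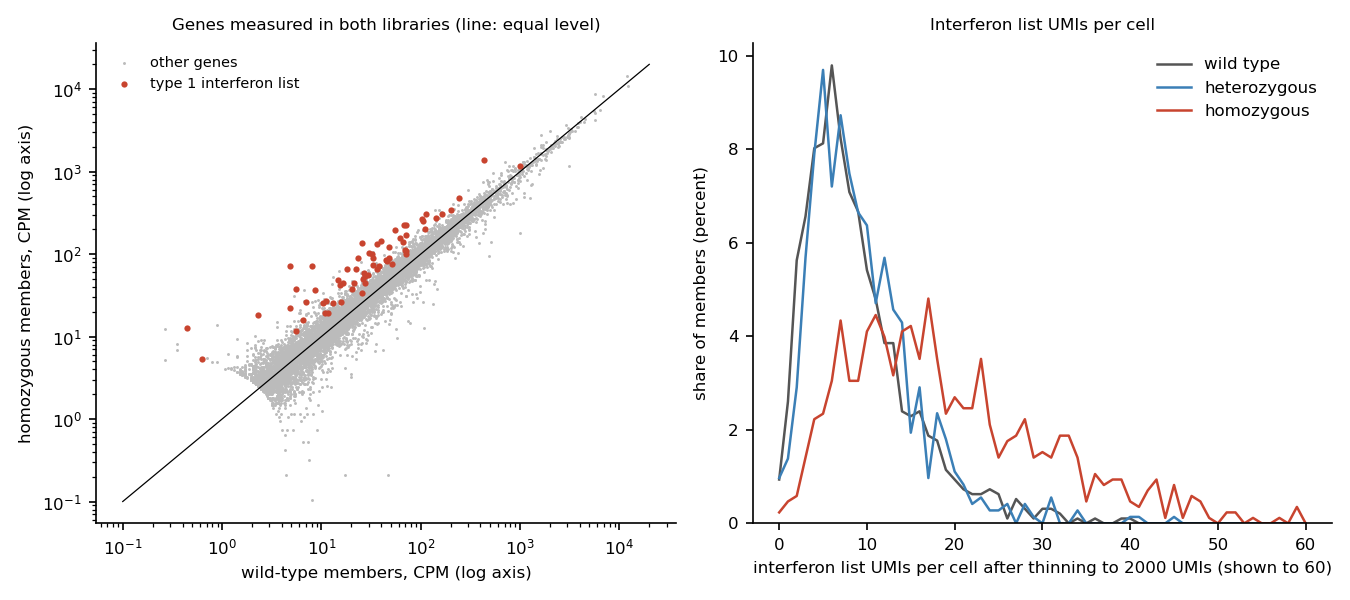
Left, CPM of every measured gene in homozygous (vertical) against wild-type members (horizontal), both on log axes, with the 64 type 1 interferon genes in colour, all above the diagonal. Right, share of members (percent) by their number of interferon list UMIs after thinning each cell to 2000 UMIs, with medians of 8, 8 and 17 for wild type, heterozygous and homozygous.

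The difference was seen from the 5th to the 95th percentile of the cells. After thinning to 2000 UMIs per cell the median number of interferon list UMIs was 8, 8 and 17 over 960, 722 and 853 cells. The lower quartiles were 5, 5 and 11 and the 95th percentiles 21, 20 and 43, so the homozygous library was higher at the low and at the high end. Of the homozygous cells 35.9% were above the wild-type 95th percentile, and 2 cells held no UMI of the list, against 9 in the wild type. The Ifit genes were found in fewer cells. At full depth Ifit3 had a UMI in 3.95, 3.45 and 25.6% of members and Isg15 in 22.7, 16.3 and 53.9%, and after thinning in 1.15, 1.25 and 9.73% and 8.23, 4.16 and 22.6%. Among T and natural killer cells Isg15 had a UMI in 9.52, 7.14 and 23.1% at the depths given above. Ifit3 had one in 0, 7.14 and 11.5% of them, in the heterozygous library from 1 cell. The interferon list was higher in T and natural killer cells than in all other kept cells, as given below. Their shares are therefore not a background for Ifit3 or Isg15. The shares in T and natural killer cells rest on 21, 14 and 26 cells.

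The interferon genes were also higher outside the members in the homozygous than in the wild-type library. With Ms4a4c of the rule included, the list summed to 4383, 4782 and 9394 CPM in the members, to 1903, 1825 and 3339 CPM in all other kept cells and to 2659, 3493 and 3419.8 CPM in the few T and natural killer cells. In dividing cells of the same gate 55 of 57 measured list genes were higher in the homozygous library, 32 past the fold, with a median of 1.07. Of the 10446 genes measured there, 163 (1.56%) were past the fold higher, with a median of 0.03.

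Genes that interferon gamma also induces followed in part. Of 20 measured genes of a list of guanylate-binding and immunity-related GTPases with their partners, 18 were higher in the homozygous members. Past the fold were 6 of them, against 2.31% of all genes, and the list median was 0.55. Ifi47 was at 12.97, 13.5 and 52.996 CPM, a log2 ratio of 2.03 (1.76 to 2.31), and Irgm1, a GTPase of cell-autonomous immunity, at 8.26, 7.93 and 22.9 CPM, a ratio of 1.47 (1.11 to 1.84). Fcgr1, the high-affinity receptor for IgG, was at 6.75, 6.82 and 27.1 CPM, a ratio of 2.01 (1.63 to 2.40), with the wild-type and heterozygous levels almost equal. Irf1 was an exception, at 90.9, 124 and 74.4 CPM and a homozygous ratio of -0.29 (-0.43 to -0.15).

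MHC class I genes were higher by less. In the homozygous library 18 of 21 were higher and 3 past the fold, against 2.31% of all genes, with a median of 0.52. In the heterozygous library the median was -0.01. B2m, the light chain of class I, was at 486, 673 and 749 CPM, with ratios of 0.62 (0.57 to 0.68) and 0.47 (0.41 to 0.53). H2-K1 stood highest in the heterozygous library, at 353, 455 and 372 CPM. The nonclassical H2-T23 was at 88.3, 84.04 and 152 CPM, a homozygous ratio of 0.78 (0.66 to 0.90). Class I genes are near copies of one another, so the split of reads among them is uncertain.

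Granule genes of the neutrophil-like branch of monocytes were lower in the homozygous members. Of 16 measured genes of that list, which also holds Saa3, 15 were lower, 7 past the fold against 2.59% of all genes, and the median log2 ratio was -0.97. Chil3, the chitinase-like protein Ym1, stood at 3139.6, 1006 and 1175 CPM, with ratios of -1.42 (-1.45 to -1.39) in the homozygous and -1.64 (-1.68 to -1.61) in the heterozygous library, so both knockout libraries lay below the wild type. Elane was at 852, 487 and 414 CPM, with -1.04 (-1.09 to -0.99) and -0.81 (-0.86 to -0.75), and the serine protease gene Prtn3 at 1324, 817 and 711 CPM, with -0.90 (-0.94 to -0.86) and -0.70 (-0.74 to -0.65). Mpo, the gene of myeloperoxidase, was at 137, 85.6 and 43.6 CPM, with -1.65 (-1.81 to -1.50) and -0.68 (-0.82 to -0.55). The level in T and natural killer cells was 132, 87.1 and 98.4 CPM for Elane and 25.2, 17.4 and 10.2 CPM for Mpo, and its part in these ratios was not tested.

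In dividing cells of the same gate these differences were smaller. The homozygous log2 ratio there was -0.06 (-0.14 to 0.03) for Mpo and -0.37 (-0.41 to -0.33) for Elane, and the list median was -0.52 over 15 genes. Chil3 kept a ratio of -1.02 (-1.06 to -0.99). The heterozygous list as a whole was split, with 9 of 16 genes lower and a median of -0.28. S100a8 and S100a9 were among the higher ones.

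Stem and progenitor genes were lower in the homozygous members as well. Of 11 measured genes of the stem and progenitor list 10 were lower, with a median of -1.34. Past the fold were 6 of them, against 2.59% of all genes. In the heterozygous library the median was -0.45. Over all settings tried the homozygous median ranged from -1.79 to -0.27 and the heterozygous one from -0.51 to -0.02. Pbx3, a homeobox partner of Meis1, stood at 1009.9, 889.6 and 179.995 CPM, with ratios of -2.49 (-2.56 to -2.41) and -0.18 (-0.23 to -0.14), and had a UMI in 89.1, 90.9 and 41.5% of members and 61.9, 57.1 and 42.3% of T and natural killer cells, so the homozygous share of members was no higher than that background. The homozygous level was by far the lowest, while the other two libraries differed little. Dach1, a nuclear corepressor, was at 505, 332 and 142 CPM, with -1.84 (-1.92 to -1.75) and -0.61 (-0.68 to -0.54), so the heterozygous library lay between. Angpt1, a ligand of the TIE2 receptor, was at 57.8, 38.8 and 9.50 CPM, with -2.61 (-2.94 to -2.29) and -0.58 (-0.78 to -0.37).

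Meis1 and Mecom had smaller ratios. Meis1 had ratios of -0.54 (-0.59 to -0.48) and -0.45 (-0.51 to -0.40), and Mecom -0.49 (-0.55 to -0.43) and -0.20 (-0.26 to -0.14). With the rule applied to thinned cells Mecom had ratios of 0.078 and 0.22, the opposite direction. Hoxa9 ran against its list in the homozygous library, at 109.97, 91.8 and 155 CPM and a ratio of 0.50 (0.39 to 0.61). Cd34, the stem cell surface mucin, was at 25.6, 19.8 and 10.1 CPM, with -1.34 (-1.68 to -0.998) in the homozygous library. Pbx3 was also lower in dividing homozygous cells, at a ratio of -2.08 (-2.16 to -1.9999), and in all other kept cells, where it stood at 1290.2, 1043 and 214 CPM. Outside the list, Aff3, a transcription elongation gene, was at 108, 61.2 and 12.8 CPM, with -3.08 (-3.36 to -2.80) and -0.81 (-0.98 to -0.66).

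**Figure D3:**
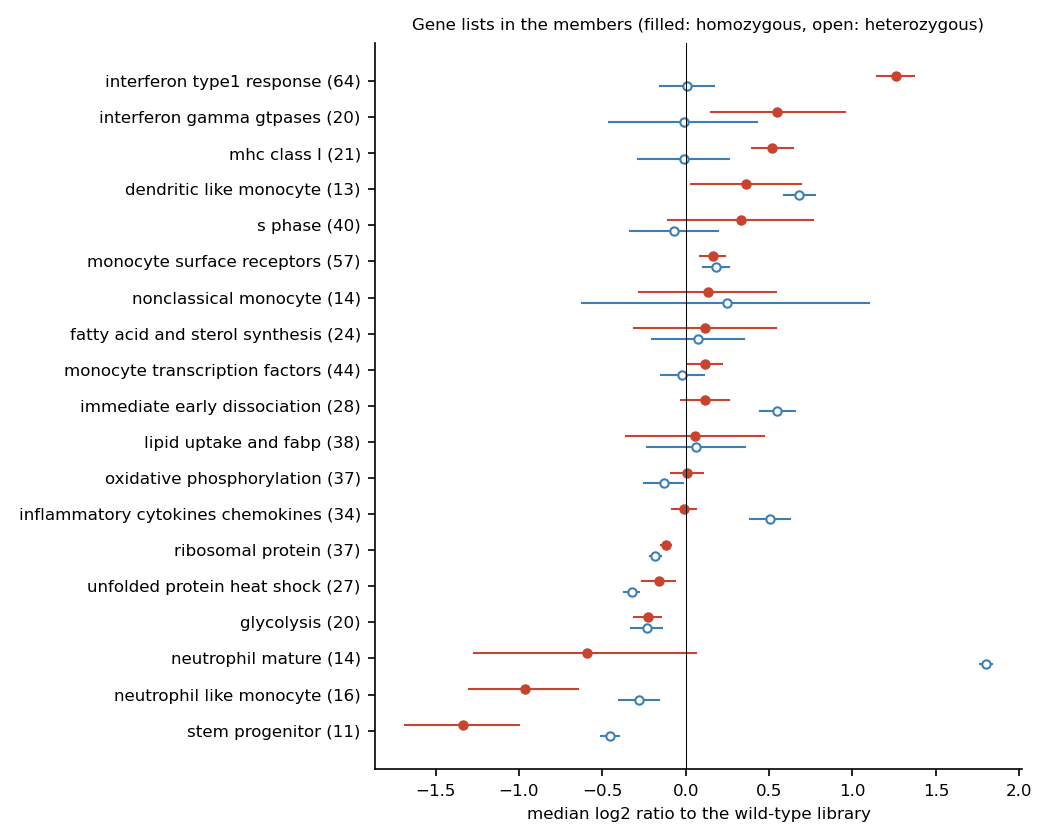
Median log2 ratio of each gene list in the members, homozygous (filled) and heterozygous (open) against the wild type, with the number of genes measured in the homozygous comparison in brackets. Lines join the interval bounds of the middle genes and cover counting error only. The type 1 interferon list was at 1.26 and 0.01, and the neutrophil-like list at -0.97 and -0.28.

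A small set of genes was highest in the wild-type members, and most of the set were near 0 in both knockout libraries. Saa3, an acute-phase serum amyloid, stood at 46.5, 0.835 and 0.211 CPM, with log2 ratios of -7.78 (-10.83 to -5.92) and -5.80 (-7.25 to -4.67), and had a UMI in 8.83, 0.691 and 0.234% of members. Cd38, an NAD-consuming surface enzyme, was at 17.1, 0.974 and 0.211 CPM, with -6.34 (-9.40 to -4.47) and -4.14 (-5.47 to -3.07). Raet1d, a ligand of the NKG2D receptor, held 112 UMIs in the wild-type members and 0 in both knockout libraries. Its wild-type level was 31.4-fold the floor of 3 counts in the homozygous library and 23.8-fold that in the heterozygous one. Serpinb9g, a serpin, was at 7.99, 0 and 0.106 CPM, Pmp22, a membrane protein gene, at 8.97, 0.278 and 0.739 CPM. The kallikrein Klk1b27, at 6.57, 1.95 and 0.528 CPM, kept a UMI in 11 heterozygous cells against 53 wild-type ones. Raet1d and Serpinb9g belong to families of near copies, in which reads can be split.

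These genes were each confined to a minority of wild-type cells. In all, 328 of 963 wild-type members had a UMI of at least 1 of these 6 genes, against 24 of 724 heterozygous and 17 of 855 homozygous ones. All 6 are among the 15 genes ranked lowest in the homozygous against the wild-type members, so this contrast between libraries follows from their choice. Saa3 was often found beside the others and Raet1d was not. Of the 85 wild-type members with Saa3, 50 (58.8%) held another gene of the 6, against 243 of the 878 members without it (27.7%). For Raet1d, the share was 23.5% of 81 cells with it and 28.0% of 882 without it. The median depth of cells with and without Saa3 was 12381 and 10550 UMIs.

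Inflammatory genes divided the homozygous library from the heterozygous one. In the homozygous members 17 of 34 measured cytokine and chemokine genes were higher and 17 lower, with a median log2 ratio of -0.01. In the heterozygous members 29 of 35 were higher, 6 past the fold against 1.98% of all genes, with a median of 0.50. Cxcl2, a neutrophil attractant, stood at 489, 842 and 95.2 CPM, with ratios of -2.36 (-2.46 to -2.26) and 0.78 (0.73 to 0.84), on opposite sides of the wild type. With the rule applied to thinned cells the heterozygous ratio of Cxcl2 was close to 0. Ccl3, which attracts monocytes and lymphocytes, was at 587, 1043 and 564 CPM, with -0.06 (-0.11 to -0.01) and 0.83 (0.78 to 0.88). Acod1, which makes itaconate in activated macrophages, was at 10.04, 11.97 and 1.27 CPM, with -2.99 (-3.98 to -2.13) and 0.25 (-0.17 to 0.67). Cxcl2 was also abundant in the other kept cells, at 221, 1672 and 111 CPM. It had a UMI in 4.76, 64.3 and 7.69% of T and natural killer cells, against 41.2, 80.4 and 25.3% of members, and the part of this background in the heterozygous ratio was not tested.

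Surface receptors differed one by one and not as a group. Of 57 measured receptors 37 were higher in the homozygous members, against 6089 of all 11004 genes. Past the fold were 3 of them, against 2.31% of all genes. The median was 0.16, and the heterozygous median was 0.18. Besides Fcgr1, the orphan receptor Gpr141 was at 297, 463 and 604 CPM, a ratio of 1.03 (0.96 to 1.09), and Clec4a3 at 52.3, 82.9 and 107 CPM, a ratio of 1.03 (0.88 to 1.18). Lower were Trem1, which amplifies inflammatory signals, at 50.5, 51.1 and 18.6 CPM and a ratio of -1.44 (-1.69 to -1.19), and Fcgr4, at 12.4, 6.54 and 4.75 CPM and a ratio of -1.39 (-1.91 to -0.89). From the list of phagocytosis and complement genes, C5ar1, the receptor of complement C5a, was at 22.9, 36.6 and 8.76 CPM, with -1.39 (-1.76 to -1.03) and 0.68 (0.42 to 0.93). Colec12, a scavenger receptor, was higher in both knockout libraries, at 14.9, 43.8 and 62.2 CPM, with 2.06 (1.81 to 2.31) and 1.55 (1.28 to 1.83). The heterozygous level was uneven within its library. Members with Y-linked RNA alone lay nearer to the wild-type level than members with Xist alone, which were higher, as given under other observations.

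Lineage transcription factors were near the median of all genes. Their list had a median of 0.11 in the homozygous and -0.02 in the heterozygous library. Spi1, the gene of the myeloid master factor PU.1, was at 503, 482 and 546 CPM, with 0.12 (0.06 to 0.17). Cebpe, which drives granule formation in neutrophils, was at 46.6, 49.5 and 20.5 CPM, a homozygous ratio of -1.19 (-1.43 to -0.95), and Cebpa, a factor of granulocyte-monocyte progenitors, at 76.04, 98.9 and 133 CPM, a ratio of 0.80 (0.68 to 0.93). Markers of nonclassical monocytes had medians of 0.13 over 14 genes and 0.25 over 15. Nr4a1, which those cells need, was at 63.7, 139 and 89.3 CPM, with 0.49 (0.34 to 0.63) and 1.13 (0.99 to 1.27).

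Immediate early genes were higher in the heterozygous library, in the members and outside them. Of 28 genes measured in the heterozygous members 23 were higher, 5 past the fold against 1.98% of all genes. The median was 0.55, beside 0.11 in the homozygous library. In dividing cells of the same gate the heterozygous median was 0.46. The list summed to 12441, 19612 and 13927 CPM in the members and to 9535, 15487 and 11146 CPM in the other kept cells. Fos, a subunit of the factor AP-1, stood at 858, 2444 and 1155 CPM, with ratios of 0.43 (0.39 to 0.47) and 1.51 (1.47 to 1.55), and its relative Fosb at 429, 1049 and 495 CPM, with 0.21 (0.15 to 0.26) and 1.29 (1.24 to 1.34). Dusp1, a phosphatase that ends MAP kinase signals, was at 467, 1043 and 448 CPM, with -0.06 (-0.12 to 0.00) and 1.16 (1.11 to 1.21). Zfp36, which breaks down cytokine mRNA, was at 442, 868 and 401 CPM, with 0.97 (0.92 to 1.03) in the heterozygous library. The wild-type and homozygous libraries lay close together for Fosb, Dusp1 and Zfp36.

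Mature neutrophil genes were higher in the heterozygous members together with their level in all cells. All 14 measured markers were higher, 10 past the fold against 1.98% of all genes. Their median was 1.80, and in the homozygous members the median was -0.59. The summed level of the 15 markers was 1937, 6484 and 1180.3 CPM in the members, 21702, 69845 and 26168 CPM in the other kept cells and 851, 3171 and 807 CPM in T and natural killer cells, which do not make them. None of the markers was at 0 in any library. S100a8, a calcium-binding alarmin, stood at 905, 2755 and 468 CPM, with ratios of -0.95 (-1.004 to -0.90) and 1.61 (1.57 to 1.64), and at 466, 1411 and 366 CPM in T and natural killer cells. Retnlg, a marker of mature neutrophils, was at 2.75, 52.2 and 2.32 CPM, with 4.24 (3.71 to 4.82), and at 6.30, 8.71 and 3.39 CPM in those cells. The part of free neutrophil RNA in these ratios was not tested.

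A few genes were highest in the heterozygous members. Of these, Slamf7 and Pf4 were past the fold higher in the homozygous library as well. Slc15a2, a peptide transporter, held 0.266, 51.5 and 0 CPM, from 3 UMIs in the wild-type members and 0 in the homozygous ones, a heterozygous log2 ratio of 7.59 (6.04 to 9.88), and had a UMI in 0.208, 28.9 and 0% of members. It was at 21.3 CPM in the 232 heterozygous members with Xist alone and at 72.8 CPM in the 319 with Y-linked RNA alone. Slamf7, a receptor of the SLAM family, was at 6.31, 35.1 and 16.05 CPM, with 1.35 (0.93 to 1.77) and 2.47 (2.09 to 2.88). Rtn1, a reticulon, was at 4.97, 29.8 and 8.76 CPM, with 2.58 (2.15 to 3.03), and the C-type lectin gene Clec4b1 at 15.01, 55.2 and 17.4 CPM, with 1.88 (1.62 to 2.15). Bach2, a transcriptional repressor known from lymphocytes, was at 10.4, 43.5 and 15.3 CPM, with 2.07 (1.76 to 2.39). Pf4, the platelet chemokine CXCL4, was at 0.711, 12.8 and 5.49 CPM, with 2.95 (1.87 to 4.24) and 4.17 (3.13 to 5.43), and had a UMI in 0.727, 2.62 and 0.468% of members, so that the homozygous level came from 4 cells. It was at 3.62 and 24.4 CPM in the heterozygous members with Xist alone and with Y-linked RNA alone.

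Lower in the heterozygous members, beside the genes near 0 in both knockout libraries, was Myo1e, an unconventional myosin, at 28.2, 3.06 and 8.34 CPM and ratios of -1.76 (-2.13 to -1.40) and -3.21 (-3.90 to -2.58). Satb1, a chromatin organizer, was at 217, 54.3 and 121 CPM, with -0.84 (-0.94 to -0.74) and -1.997 (-2.16 to -1.84). Ifitm1, which blocks virus entry and is also used as a stem cell marker, was low in both knockout libraries and so ran against the type 1 interferon list, to which it was not assigned, at 77.4, 17.8 and 14.6 CPM, with -2.41 (-2.68 to -2.15) and -2.12 (-2.40 to -1.85). Genes of a dendritic-like turn were higher in the heterozygous library, in the members and outside them. In the members 12 of 13 measured were higher, with a median of 0.68 beside 0.36 in the homozygous library. Past the fold were 2 higher, against 1.98% of all genes, and 1 lower. With 4 genes of the rule included, the list summed to 1067, 1664 and 1279 CPM in the members. In the other kept cells it summed to 673, 1535 and 883 CPM, and the part of this background in the heterozygous ratios was not tested. Cd86, a costimulatory ligand, was at 167, 268 and 144 CPM, with -0.22 (-0.32 to -0.12) and 0.68 (0.59 to 0.77).

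**Figure D4:**
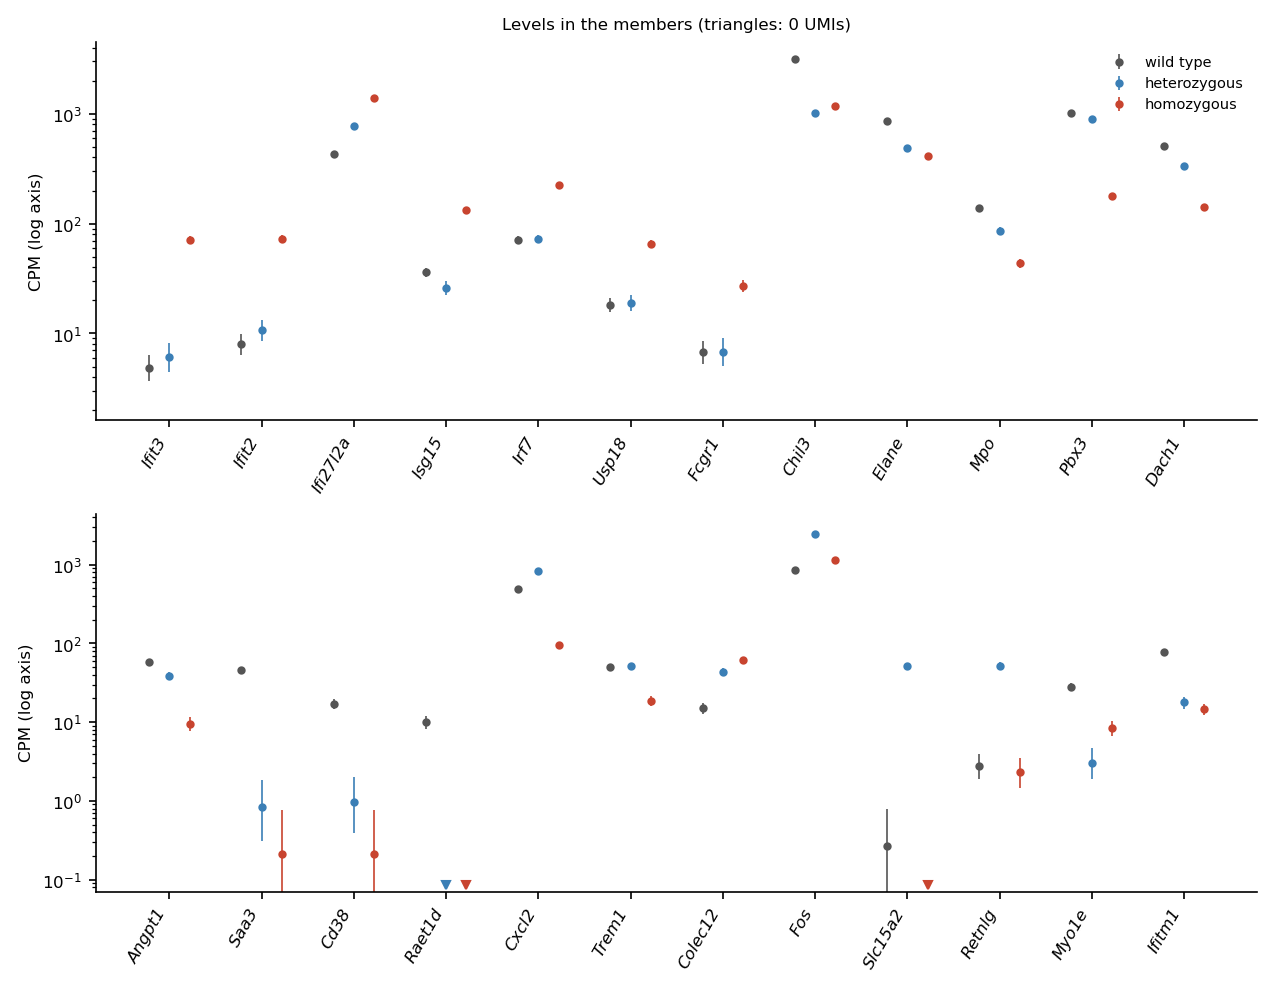
Level in CPM (log axis, 95% exact Poisson intervals) of 24 genes described in the text, in the members of the wild-type, heterozygous and homozygous libraries. Arrowheads at the lower edge stand for 0 UMIs. Interferon genes were highest in the homozygous library, and Slc15a2 was at 51.5 CPM in the heterozygous library against 0.266 in the wild type.

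A further set of genes apart from any list led the homozygous comparison. Xlr4a, an X-linked lymphocyte-regulated gene, was at 0.888, 0.974 and 13.7 CPM, with 3.95 (3.02 to 5.04) and 0.13 (-1.50 to 1.67), and its relative Xlr3b at 0.355, 0 and 8.23 CPM. The family has near copies among which reads can be split. Cdk5rap1, a modifier of mitochondrial transfer RNA, was at 5.24, 8.35 and 31.2 CPM, with 2.58 (2.17 to 3.004) and 0.67 (0.13 to 1.22), and Xcl1, the chemokine lymphotactin, at 1.42, 0.139 and 9.40 CPM, with 2.72 (1.95 to 3.59) and -3.35 (-8.74 to -0.67). Capn11, a calpain, was at 0.355, 2.78 and 6.97 CPM, with 4.29 (2.87 to 6.21). Lower was Col19a1, a collagen gene, at 134, 291 and 24.6 CPM, with -2.45 (-2.66 to -2.25) and 1.11 (1.02 to 1.21), so the knockout libraries lay on opposite sides of the wild type. Fras1, an extracellular matrix gene, was at 7.37, 2.78 and 0.528 CPM, with -3.80 (-5.46 to -2.52) and -1.41 (-2.19 to -0.69).

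Lipid genes, the pathway of Fabp4, showed small differences. Of 38 measured genes of lipid uptake and handling 21 were higher and 17 lower in the homozygous members, against 6089 of all 11004 genes higher. None was past the fold, and the median log2 ratio was 0.06. The heterozygous median was 0.06, with 2 genes past the fold higher, against 1.98% of all genes. Fatty acid and sterol synthesis had medians of 0.12 and 0.07 over 24 and 23 genes. Lpl, which frees fatty acids from lipoproteins, was at 33.8, 33.9 and 17.9 CPM, with -0.91 (-1.18 to -0.65) and 0.01 (-0.23 to 0.24). Abcg1, a cholesterol exporter, was at 27.6, 41.7 and 47.7 CPM, with 0.79 (0.58 to 1.001) and 0.60 (0.36 to 0.83). Acly, which makes acetyl-CoA for lipid synthesis, was at 88.7, 78.9 and 53.6 CPM, with -0.73 (-0.88 to -0.57), and Pparg, the nuclear receptor of fatty acids, at 3.997, 8.21 and 4.12 CPM, with 0.04 (-0.61 to 0.69) and 1.04 (0.45 to 1.63).

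Glycolysis and ribosomal protein genes were slightly lower in both knockout libraries. Glycolysis genes were lower in 16 of 20 in the homozygous and 14 of 20 in the heterozygous members, with medians of -0.23 and -0.23. Ribosomal protein genes were lower in 32 and 36 of 37, by medians of -0.12 and -0.18. Nuclear genes of oxidative phosphorylation had medians of 0.01 and -0.13, with 34 of 37 lower in the heterozygous library. Genes of the unfolded protein and heat shock responses had medians of -0.16 and -0.32. Mt1, a metallothionein, was at 668, 339 and 403 CPM, with -0.73 (-0.79 to -0.67) and -0.98 (-1.04 to -0.91).

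S phase genes were slightly higher in the homozygous members. The rule left in cells with fewer than 5 division UMIs, and Mki67 had a UMI in 22.8, 17.0 and 27.5% of members. Of 40 measured S phase genes 34 were higher, 1 past the fold against 2.31% of all genes. The median was 0.33, and the heterozygous median was -0.07. Mcm3, a subunit of the replicative helicase, was at 37.3, 29.5 and 59.8 CPM, with 0.68 (0.49 to 0.87) in the homozygous library, and at 74.4, 46.9 and 104 CPM in the other kept cells. Cdkn2c, an inhibitor of CDK4 and CDK6, was at 146, 129 and 38.2 CPM, with -1.93 (-2.10 to -1.77) and -0.18 (-0.30 to -0.06). In dividing cells its homozygous ratio was -0.65 (-0.80 to -0.51).

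**Figure D5:**
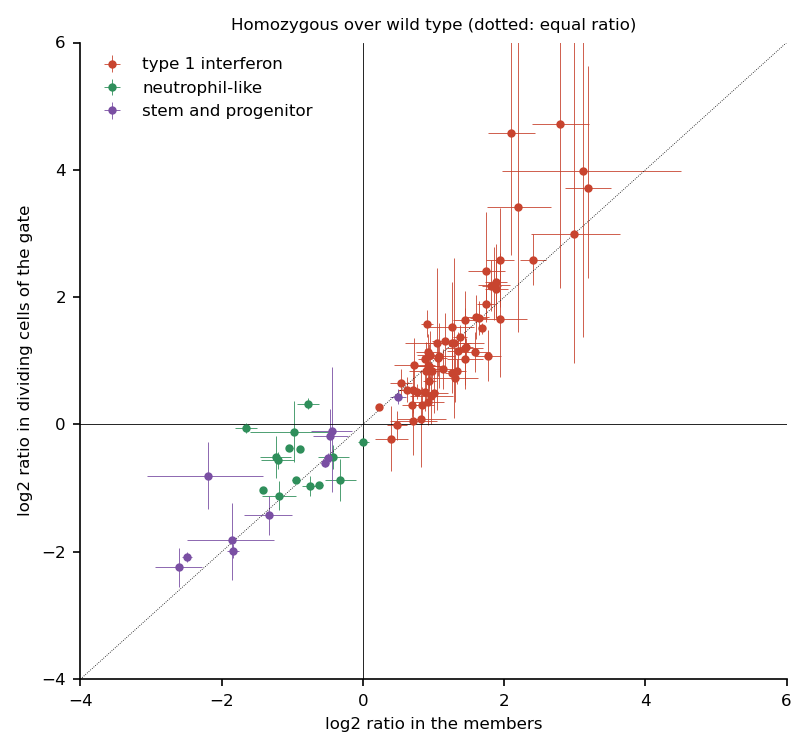
Log2 ratio of homozygous over wild type in the members (horizontal) and in dividing cells of the same gate (vertical) for measured genes of 3 lists, with 95% exact counting intervals. Interferon genes lie in the upper right, stem and progenitor genes mostly in the lower left, and Mpo at -1.65 and -0.06. Saa3 and genes without a finite interval are not drawn.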

How the data were processed

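Bone marrow cells of 3 libraries were profiled with the 10x Chromium 3' v3 kit, per the labels' protocols. The deposited matrices hold raw UMI counts per gene and barcode, made with Cell Ranger 8.0.1 per the file headers. The submitters' processing notes also name STAR and the build mm10. The annotation release, and whether intronic reads were counted, are not given in the sources used here. Cells with at least 500 UMIs, 200 genes and a mitochondrial share under 10% were kept. The members and gene lists were chosen with earlier results of these data known.

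UMIs were summed over members and scaled to CPM, with exact Poisson intervals. Log2 ratios carry exact conditional intervals, and shares Clopper-Pearson intervals, all at 95% and for counting error only. The text names the genes of the rule, the 15 highest and 15 lowest by interval bound in each comparison, the 15 leading over other cells, and genes of the lists. Not every gene so ranked is printed. The scripts ran on Python 3.11.15 with numpy 2.4.6, scipy 1.17.1, pandas 2.3.3 and scanpy 1.11.5, and were tested on simulated data. edgeR 4.0.16 gave TMM factors for 1 alternative. No doublets were removed from the main set, and removing the top cells by Scrublet was an alternative, beside other limits, totals, weights and depths.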

Additional observations from a re-analysis of the deposited data

How the results depend on the processing

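The median homozygous ratio of the type 1 interferon list ranged from 1.14 to 1.31 over all settings tried, with the lowest value at 2 or more UMIs each of Ly6c2 and Ccr2. The heterozygous median was 0.22 when the rule was applied to cells thinned to 2000 UMIs. The share of kept cells that were members moved with most limits, and values follow in the order wild type, heterozygous, homozygous. It was 12.7%, 7.50% and 12.2% under a mitochondrial limit of 25%, 18.3%, 10.1% and 24.5% from 3000 UMIs per cell, 11.1%, 5.64% and 14.3% with 2 UMIs each of Ly6c2 and Ccr2, 13.7%, 7.30% and 14.5% with fewer than 2 division UMIs, and 4.71%, 3.32% and 9.84% in thinned cells. Under a mitochondrial limit of 5% the wild-type share was 20.5% and the homozygous 25.7%. With 4 of the 7 genes the wild-type share was 14.6% and the heterozygous 8.47%.

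Counts of genes past the fold moved with the filter on low counts and with the cells used. With at least 200 UMIs, the homozygous library had 111 higher and 111 lower, and the heterozygous one 83 higher and 46 lower. With no filter beyond 1 UMI in each library they were 1255 and 1267, and 1229 and 1012. A further setting used the 253, 246 and 359 cells that met the rule after thinning, with their counts at full depth. Fewer UMIs were summed there, and 144 genes were lower in the homozygous and 137 higher in the heterozygous library. Among cells with Xist and no Y-linked RNA 337 were lower in the heterozygous library. Leaving out genes far more abundant in other kept cells was added after seeing the data and gave 247 higher and 262 lower in the homozygous library, and 172 higher and 189 lower in the heterozygous one.

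Of 154 single-gene ratios 24 changed sign under at least 1 setting, 15 of them with an interval that included 0 in the first place. The other 9 follow, and the cause was not tested. In the cells that met the rule after thinning, counted at full depth, the heterozygous ratio was 0.14 for Acly and 0.038 for Angpt1. It was -0.0033 for Cxcl2, 0.016 for Isg15, 0.22 for Mecom and 0.073 for Pbx3. The homozygous ratio in these cells was 0.091 for Ccl3 and 0.078 for Mecom. The homozygous ratio of Dusp1 was 0.0010 among cells with Xist alone and 0.000153 with equal weight per cell. The comparison of cells with Y-linked RNA alone was not run, since the wild-type library held 5 such members. No paired analysis was possible because each genotype had 1 library. Depth limits genes near the floor of 3 counts, such as Fabp4, and no setting gives the spread between mice.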

Other observations

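Within the heterozygous library the members with Y-linked RNA alone (319 cells) and those with Xist alone (232 cells) differed in few genes beside Slc15a2 and Pf4. Of 8132 genes measured between them, 43 were past the fold higher and 21 lower in the cells with Y-linked RNA. Stfa2l1, a stefin of neutrophils, was at 62.5 CPM in cells with Xist alone and at 195.6 CPM in those with Y-linked RNA alone, and its relative Stfa2 at 92.0 and 259.8 CPM. Colec12 was at 95.6 and 18.2 CPM, and Kmt2a, a histone methyltransferase gene, at 432 and 183 CPM. The type 1 interferon list had a median log2 ratio of 0.05 between them. Both sets come from 1 library, and which mouse each cell came from was not given.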
